A study of Mus musculus with 8 samples.

Results

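Cholesterol and fatty acid synthesis was followed through 30 genes in fluorescent cells sorted from the cochlear nucleus, the first hindbrain relay of hearing, of mouse embryos. The genes were 19 enzymes that lead from citrate to cholesterol, 5 regulators of sterol synthesis, 5 enzymes that make, lengthen or desaturate fatty acids, and the sterol carrier Stard4. All 30 were found by symbol among the 39017 genes of the deposited count table, and all 30 passed the filter on low counts. The set was chosen by the lower CPM of Stard4 in mutant libraries, which was already known, to ask whether the rest of the pathway shared it. The difference of Stard4 is therefore given as a description with no test, whereas the other 29 were taken for their role in the pathway. The set does not hold every gene of the pathway.

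All embryos were C57BL/6 and carried Math1::Cre and the Rosa tdTomato reporter, so that red cells are those in which the Math1 (Atoh1) promoter, active in the rhombic lip, was on, and their descendants. For the wild type group, 4 libraries in all, the labels name no further allele. The mutant group also gave 4, and its sample titles read Hoxa2+/fl and Hoxb2fl/fl, while the design text gives both loci as fl/fl. Each library held 30000 sorted cells of 3 pooled littermates at stage E18.5, and every library came from a different mother. The count table numbers its columns through both groups, from mutant 1 to 4 and from wild type 5 to 8, and these numbers name the libraries here.

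Cells make cholesterol from acetyl-CoA. Acetyl-CoA is built into HMG-CoA and mevalonate, isoprenoid units are joined to squalene, and squalene is closed to lanosterol, which a series of enzymes turns into cholesterol. Fatty acids start from the same acetyl-CoA. When membranes run short of sterol, Scap carries the SREBP proteins, encoded by Srebf1 and Srebf2, out of the endoplasmic reticulum, and their released part switches on genes of both pathways; Insig1 and Insig2 hold them back. Brain cholesterol is made locally, since lipoproteins do not cross the blood-brain barrier, and growing neurons need sterol for axons and synapses.

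SREBP binds sterol regulatory elements, usually beside NF-Y and Sp1 sites, and can bind E-boxes. The RefSeq promoter table (GRCm38.p6) held 32 windows, each from 250 bases before to 50 after a start, for 24 of the 30 genes. Those without an entry were Fdps, Fdft1, Sqle, Stard4, Scd1 and Scd2. Letters were searched on both strands, and the full sterol element contains its core. The full element was in 0 of the 32 windows and in 0.0913% of all 32851 windows of the table. Its core TCACNCCAC was in 1 (3.12%, against 1.24% of all), that of Hmgcs1. The NF-Y box CCAAT was in 21 windows (65.6%, against 37.4% of all), the Sp1 box GGGCGG in 24 (75%, against 35.7%) and the E-box CACGTG in 6 (18.8%, against 7.15%). The 6 E-box windows belong to 5 of the 24 genes, since Scap counts with 2 windows. NF-Y and Sp1 boxes were each in windows of 20 of the 24. Windows of the same gene can overlap, so the same site may be counted more than once. These matches are a description of letters, not of binding.

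The stretches are the bases from 200 to 51 before the start (5′ to 3′, RefSeq, GRCm38.p6). Hmgcs1 is shown for the only match to the sterol element core, Sc5d, Hsd17b7 and Insig1 for an E-box, and Srebf1, at its most upstream start, as the regulator whose level was uneven between libraries. Capitals mark matches to the sterol element core, NF-Y box, E-box and Sp1 box.
Hmgcs1, chr13:119690151-119690300, plus strand: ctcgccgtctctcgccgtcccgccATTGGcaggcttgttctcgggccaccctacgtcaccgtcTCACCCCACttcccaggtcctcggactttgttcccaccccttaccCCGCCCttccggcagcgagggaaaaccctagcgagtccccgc
Sc5d, chr9:42264351-42264500, minus strand: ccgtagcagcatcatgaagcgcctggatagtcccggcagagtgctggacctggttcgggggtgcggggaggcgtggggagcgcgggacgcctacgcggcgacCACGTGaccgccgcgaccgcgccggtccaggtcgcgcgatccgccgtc
Hsd17b7, chr1:169969256-169969405, minus strand: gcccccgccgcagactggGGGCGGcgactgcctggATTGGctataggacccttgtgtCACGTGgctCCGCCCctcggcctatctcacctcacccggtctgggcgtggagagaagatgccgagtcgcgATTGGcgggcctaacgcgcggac
Insig1, chr5:28071212-28071361, plus strand: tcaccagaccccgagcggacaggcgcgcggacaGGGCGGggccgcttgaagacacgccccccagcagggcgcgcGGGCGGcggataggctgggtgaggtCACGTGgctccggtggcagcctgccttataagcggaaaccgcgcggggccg
Srebf1, chr11:60222632-60222781, minus strand: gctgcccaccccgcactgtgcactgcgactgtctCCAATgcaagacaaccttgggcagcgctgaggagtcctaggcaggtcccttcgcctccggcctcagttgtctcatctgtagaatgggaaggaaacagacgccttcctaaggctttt
The sterol core of Hmgcs1 begins 137 bases before the RefSeq start and lies between a reversed NF-Y box and a reversed Sp1 box. Hsd17b7 carries its E-box between a reversed NF-Y box and a reversed Sp1 box, whereas the E-box of Sc5d stands alone in this stretch.

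Total counts ran from 24789043 to 51118195 per library. Hoxb2, a targeted gene, ran from 37.4 to 46.7 CPM across wild type and from 3.77 to 6.81 across mutant libraries; CPM (reads of a gene over the TMM-scaled library total) is the level used throughout. Hoxa2 was at 30.8 to 55.1 and 11.1 to 48.0 CPM, so that its groups overlapped. The summed level of 10 Atoh1-lineage and excitatory markers, all of them tested, ran from 2368 to 2740 CPM among wild type and from 1874 to 2283 among mutant libraries, with no overlap, and 1 of the 10, Nhlh1, fell. Astrocyte and radial glia markers summed to 342 to 468 and 206 to 509 CPM over 8 genes. Oligodendrocyte markers summed to 73.1 to 105 and 76.6 to 86.3 over 8, and microglia markers to 15.0 to 20.8 and 10.9 to 16.7 over 6. Csf1r was the highest of these 6 in every library, at 9.81 to 15.2 CPM, with a log2 change of 0.07. C1qa, Cx3cr1, P2ry12 and Ptprc, each at most 3.78 CPM, had -3.45, -2.41, -2.03 and -0.87 (edgeR adjusted p = 0.0115, 0.186, 0.0900 and 0.489). Of the 6 only C1qa fell past the threshold over all genes. Aif1, which was not tested, held 0.234 to 0.591 CPM across wild type and 0.0270 to 0.136 across mutant libraries. Inhibitory neuron markers summed to 30.9 to 58.1 and 44.3 to 102 CPM over 6 genes, and the lists for Schwann, endothelial, meningeal, choroid plexus and red blood cells to at most 16.8 CPM in any library, with Hba-a1 at 0 in all of them. Markers of S phase and mitosis were high in wild type 5 and 6 and mutant 1, at 938, 920 and 689 CPM, against 241 to 436 CPM in the other libraries.

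**Figure D1:**
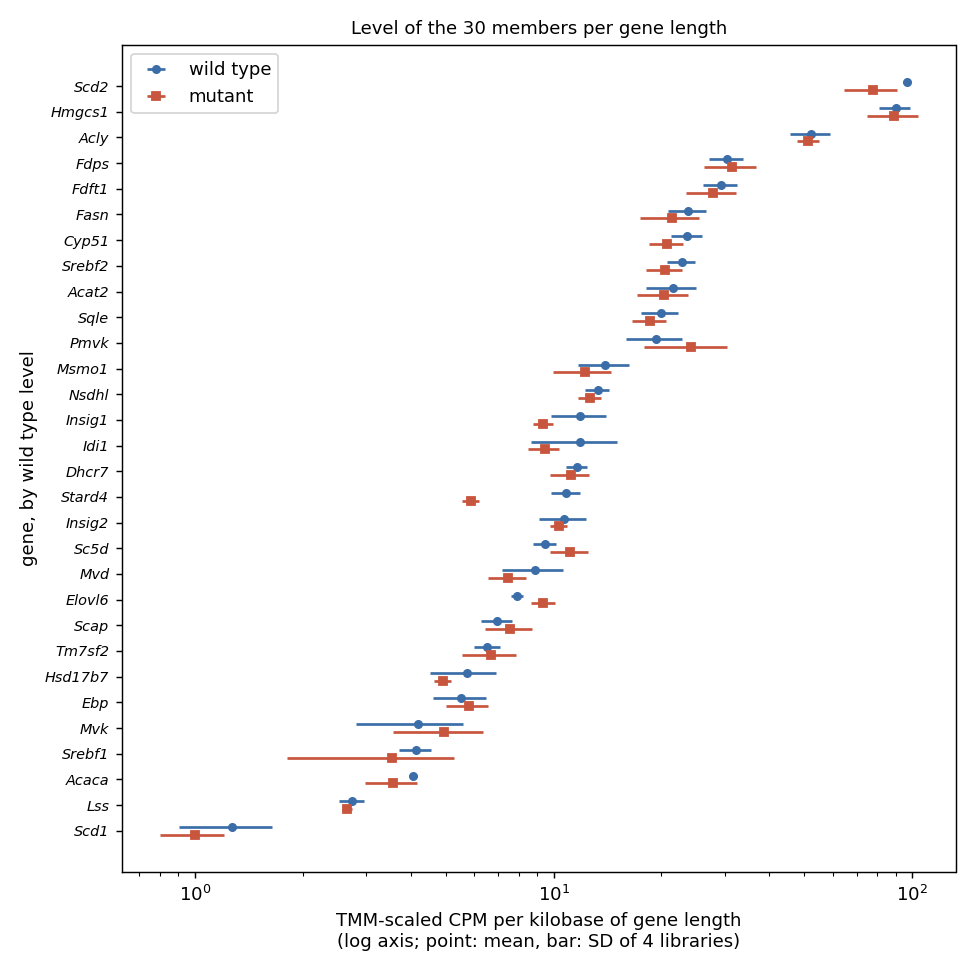
Level of the 30 genes in CPM per kilobase of gene length (length as in the deposited table, log axis), as mean and SD of 4 wild type (circles) and 4 mutant libraries (squares), ordered by the wild type mean. Scd2 and Hmgcs1 lead and Scd1 is last, and the markers of the 2 groups lie apart most visibly for Stard4.

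Per gene length, these genes spanned a 75.9-fold range in wild type cells. Scd2, the brain form of the stearoyl-CoA desaturase that makes monounsaturated fatty acids, led with 96.6 ± 2.20 CPM per kilobase (SD, n = 4). Hmgcs1, HMG-CoA synthase, followed with 89.9 ± 9.05 CPM per kilobase and Acly, which makes cytosolic acetyl-CoA from citrate, with 52.4 ± 6.60. These values use the gene lengths of the deposited table, which for 14 of the 30 genes differ by over 5% from the length of all merged exons in GENCODE M21, a comparison added after seeing the data. By exon length Hmgcs1 had 63.3 ± 6.37 CPM per kilobase. Its SD thus reached the mean of Scd2 by the table's length, but not by exon length (Scd2 at 96.4 ± 2.20). Fdps, the synthase of farnesyl diphosphate, depended most on the length: it was the fourth at 30.5 ± 3.37 CPM per kilobase with 1241 bases in the table and rank 17 at 8.99 ± 0.994 with 4208 exon bases. Under both lengths Scd2, Hmgcs1 and Acly held ranks 1 to 3, and Scd1, the liver and skin form of the desaturase, was last at 1.27 ± 0.370 CPM per kilobase by the table. Stard4 was in the middle, at 10.8 ± 1.01 CPM per kilobase, rank 17 of 30 by the table and 14 by exon length. The order of the genes between these is not read further.

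Stard4 (ENSMUSG00000024378, chromosome 18, 33199355 to 33213862, mm10) encodes a small START-domain protein that carries sterol between membranes through the cytosol. Wild type 5 to 8 held 65.5, 58.5, 53.4 and 64.6 CPM, while mutant 1 to 4 held 32.6, 35.1, 30.9 and 32.5 CPM. The groups did not overlap, as for 2.94% of all tested genes in the same direction. The lowest wild type library stood 1.52-fold above the highest mutant library, and the 4 mutant libraries lay close together. The means were 60.5 ± 5.66 and 32.8 ± 1.75 CPM (SD, n = 4), and on the log2 scale the change was -0.88 (SE 0.107). Behind these levels, wild type 5 to 8 held 2548, 1503, 1866 and 2551 reads, and mutant 1 to 4 held 995, 892, 1590 and 1205. No exon of Stard4 overlapped another tested gene, and 0% of the 50-base stretches of its longest transcript occurred in a transcript of another gene. The Atoh1-lineage marker sum was lower in the same libraries, and its part in the lower Stard4 level was not tested. In RNA from a sorted population, fewer cells of a type and less RNA per cell cannot be told apart.

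**Figure D2:**
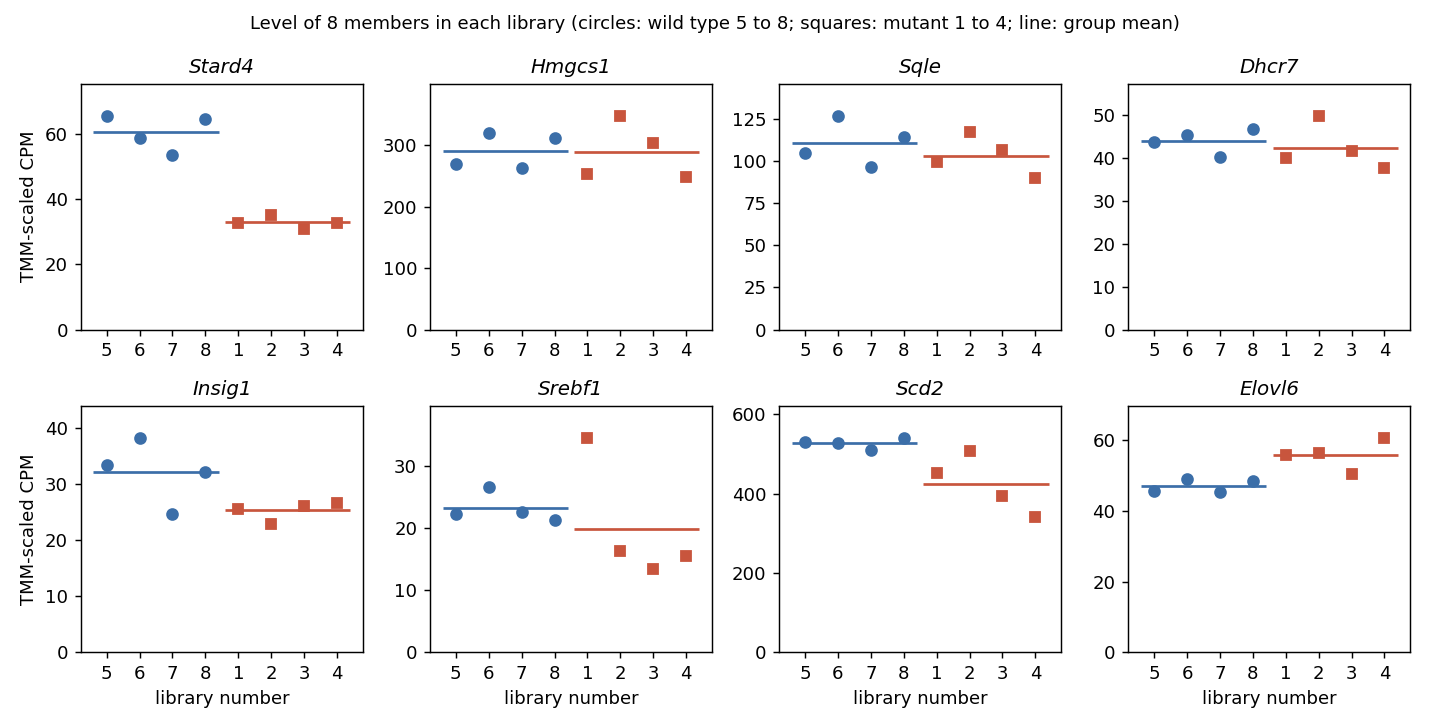
Level of 8 of the genes in each library in TMM-scaled CPM (wild type 5 to 8, circles; mutant 1 to 4, squares; lines, group means). Stard4 separates the groups widely, Hmgcs1, Sqle and Dhcr7 overlap between them, and Srebf1 in mutant 1 stands far above mutant 2 to 4.

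The other 29 genes were compared between mutant and wild type libraries with edgeR's quasi-likelihood test over 19494 genes. None passed an adjusted p of 0.05, where 0.359% of all tested genes did (70 genes, a count that ran from 26 without mutant 4 to 544 without mutant 1). The count was also 0 of 29 with DESeq2 and with limma-voom, whether or not its libraries carried quality weights. At an unadjusted p below 0.05 there were 3 of 29, Insig1 and Scd2 lower and Elovl6 higher, where 12.5% of all tested genes had such a p (5.29% lower and 7.22% higher). This count was 0 without wild type 5, 1 without mutant 2 or mutant 4, and 6 without mutant 1. Groups did not overlap for Scd2 and Elovl6, as for 6.17% of all tested genes (2.94% lower and 3.23% higher). The median log2 fold change of the 29 was -0.08 and that of all tested genes -0.01, and 21 of the 29 were negative, against 51.6% of all genes. With single libraries left out, that median ran from -0.12 without wild type 5 to -0.02 without wild type 8, and the number negative from 17 without wild type 8 to 24 without mutant 3. Each of the 29 approximate 95% intervals, not adjusted for the number of genes, lay within a 2-fold change in either direction, and 21 lay within 1.5-fold. Adjusted p values of the 29 ran from 0.333 to 0.978.

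**Figure D3:**
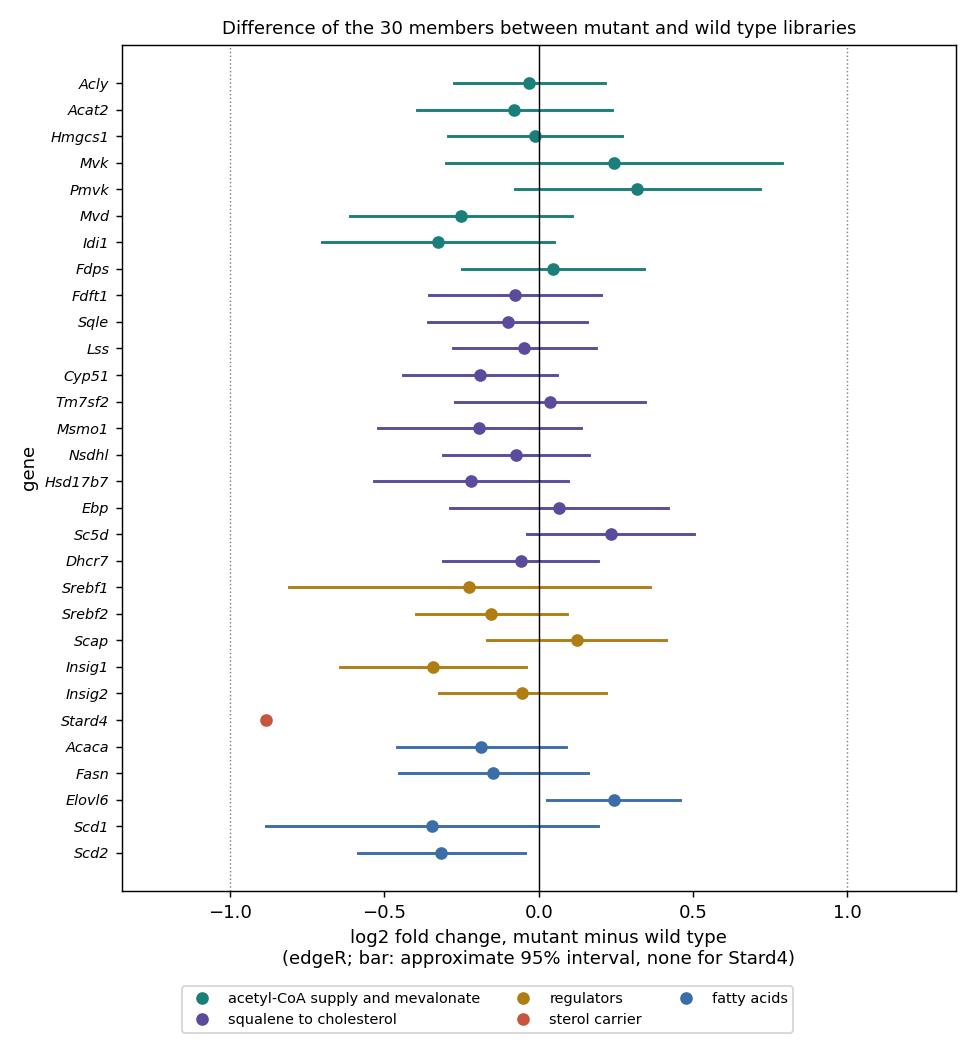
Log2 fold change, mutant minus wild type, of each gene (edgeR), coloured by role, with the approximate 95% interval of all but Stard4; dotted lines mark a 2-fold change. Stard4, shown as a description, is the lowest at -0.88, and the other 29 lie between -0.35 and 0.32.

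Enzymes that lead from acetyl-CoA to farnesyl diphosphate did not pass the test in either direction (0 of 8; 5 negative, median log2 fold change -0.02). Hmgcs1 (ENSMUSG00000093930, chromosome 13, 119690379 to 119708260) makes HMG-CoA and is a well known SREBP target. Wild type 5 to 8 held 269, 320, 262 and 311 CPM, while mutant 1 to 4 held 254, 348, 303 and 249 CPM. The groups overlapped fully, with mutant 2 the highest and mutant 4 the lowest of all 8 libraries. The log2 fold change was -0.01 (SE 0.129, 95% interval -0.29 to 0.27, edgeR adjusted p = 0.978). Acly was also close to 0, at -0.03 (SE 0.113, interval -0.28 to 0.22). Acat2, the cytosolic thiolase that joins acetyl-CoA units, had -0.08 (SE 0.145).

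Mvk and Idi1 were lower per gene length than Acly and Hmgcs1 and less even between wild type libraries. Mvk, mevalonate kinase, measured 9.51, 16.7, 8.55 and 10.2 CPM across wild type 5 to 8 and 14.6, 8.43, 17.2 and 12.7 CPM across mutant 1 to 4, with an SD of 33.0% of the mean in wild type, the widest of the 30. Its groups overlapped, and its interval of -0.30 to 0.79 was the widest among the enzymes of the sterol pathway. Its log2 fold change of 0.24 ran from 0.09 without mutant 3 to 0.50 without wild type 6. Pmvk, phosphomevalonate kinase, had 0.32 (SE 0.182, edgeR adjusted p = 0.492), with mutant 3 at 50.3 CPM above all other libraries at 23.4 to 35.0. Without mutant 3 it was 0.12. Mvd, which decarboxylates the product, had -0.25 (SE 0.165), and Idi1, the isopentenyl diphosphate isomerase, -0.33 (SE 0.172, edgeR adjusted p = 0.462). In Idi1 wild type 6 stood at 56.2 CPM, against 28.4 to 43.3 CPM in the other 7 libraries, and without wild type 6 the change was -0.15. Fdps had 0.05 (SE 0.135).

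Several of these genes share sequence with other genes, and how the authors' counting assigned such reads is not given in the sources used here. Of the 50-base stretches of the longest transcript, 45.9% of Acat2 occurred in Acat3, 30.5% of Idi1 in other genes, most of them in Gm13502, and 52.6% of Acaca in the gene model Gm5182. The wild type and mutant means were 35.7 and 39.7 CPM for Acat3, and 7.54 and 5.40 CPM for Gm13502. The shared part was 30.7% for Fdft1, 13.6% for Hmgcs1, 13.1% for Scap and 11.7% for Fdps. Values of these genes are uncertain for that reason, by an amount that was not tested. Gm5182 and the main partners of Hmgcs1 and Fdps were not among the tested genes. Fdft1 shares 18.3% of its exon bases with Ctsb and Scap 13.2% with 5830462I19Rik, both on the other strand, and nothing in the labels or the table says that strand was kept. Tm7sf2 shares 12.1% with Vps51 on the same strand.

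Of the 11 enzymes from squalene synthesis to cholesterol none passed, 8 were negative, and the median log2 fold change was -0.07. All 11 intervals lay within a 1.5-fold change in either direction, as did 4 of the 8 before squalene, with the lowest bound of the 11 at -0.53 and the highest at 0.50. Fdft1, squalene synthase, had -0.08 (SE 0.128). Sqle (ENSMUSG00000022351, chromosome 15, 59315077 to 59331192), the squalene epoxidase and a rate-limiting step, measured 104, 127, 96.5 and 114 CPM across wild type 5 to 8 and 99.4, 117, 106 and 89.5 CPM across mutant 1 to 4. These groups overlapped, with a log2 fold change of -0.10 (SE 0.119, interval -0.36 to 0.16, edgeR adjusted p = 0.744). Lss, which closes the ring to lanosterol, was the most even of these enzymes within mutant libraries, at 28.7 ± 0.932 CPM against 29.6 ± 2.39 CPM (SD, n = 4) in wild type.

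Steps that trim lanosterol showed no common direction past the test. Cyp51, the lanosterol demethylase, had -0.19 (SE 0.114, edgeR adjusted p = 0.515), Msmo1, the methylsterol oxidase, -0.19 (SE 0.151) and Hsd17b7, a ketosteroid reductase, -0.22 (SE 0.144). For Msmo1 wild type 6 was the highest library at 104 CPM and mutant 4 the lowest at 61.0 CPM, and its change was -0.08 without the first and -0.10 without the second. That of Hsd17b7 was -0.06 without wild type 8. The reductase Tm7sf2 had 0.04 (SE 0.141). Sc5d, the desaturase that makes 7-dehydrocholesterol, had 0.23 (SE 0.124, edgeR adjusted p = 0.464), with mutant libraries at 22.1 to 29.5 and wild type at 19.8 to 23.5 CPM. Dhcr7, which reduces 7-dehydrocholesterol to cholesterol, measured 43.6, 45.4, 40.1 and 46.7 CPM across wild type 5 to 8 and 39.9, 49.8, 41.6 and 37.7 CPM across mutant 1 to 4. Mutant libraries held both the highest and the lowest Dhcr7 level, and its log2 fold change was -0.06 (SE 0.115, interval -0.31 to 0.19).

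Nsdhl, a sterol dehydrogenase, and Ebp, a sterol isomerase, lie on the X chromosome, and the level of Y-linked genes differed widely between libraries of both groups. The summed level of 4 Y-linked genes ran from 0.0971 CPM in mutant 3 and 0.430 CPM in wild type 8 to 310 CPM in mutant 1 and 322 CPM in wild type 5. The change was -0.07 on the log2 scale for Nsdhl (SE 0.108) and 0.06 for Ebp (SE 0.162). With the Y-linked level as a covariate these were -0.08 and 0.05, and neither passed.

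None of the 5 regulators passed; 4 were negative, with a median log2 fold change of -0.15. Srebf2, whose protein chiefly drives cholesterol genes, measured 122, 122, 101 and 110 CPM across wild type 5 to 8 and 119, 95.6, 99.9 and 93.3 CPM across mutant 1 to 4. Its groups overlapped, at -0.15 (SE 0.112, interval -0.40 to 0.09, edgeR adjusted p = 0.586). Scap, the SREBP escort, had 0.12 (SE 0.133). Insig1 (ENSMUSG00000045294, chromosome 5, 28071363 to 28078662), a retention protein that is itself an SREBP target, measured 33.4, 38.1, 24.6 and 32.2 CPM across wild type 5 to 8 and 25.6, 22.9, 26.0 and 26.6 CPM across mutant 1 to 4. Wild type 7 lay within the mutant range and the other wild type libraries above it. The log2 fold change was -0.34 (SE 0.138, edgeR adjusted p = 0.342). Insig2, the related retention protein, had -0.05 (SE 0.124).

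Srebf1 (ENSMUSG00000020538, chromosome 11, 60199089 to 60222581), whose products drive mainly fatty acid genes, depended on single mutant libraries. Wild type 5 to 8 held 22.4, 26.7, 22.7 and 21.4 CPM, while mutant 1 to 4 held 34.5, 16.3, 13.4 and 15.6 CPM. Mutant 1 was thus the highest of the 8 libraries and mutant 2 to 4 were the lowest. The log2 fold change was -0.22 (SE 0.265, edgeR adjusted p = 0.744) with all libraries and -0.62 (edgeR adjusted p = 0.0402) without mutant 1. In that fit 544 genes passed, against 70 with all libraries. The Srebf1 change was -0.14 without mutant 2, -0.07 without mutant 3 and -0.12 without mutant 4. Over the 19 alternatives its adjusted p ran from 0.0402 to 0.955. Mutant 1 also had the highest astrocyte and radial glia sum, 509 CPM against 206 to 375 CPM in mutant 2 to 4, and the highest S phase and mitosis sum of the mutant libraries. Their part in the Srebf1 level was not tested.

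Ratios between paired genes were compared with a permutation test, exact and two-sided, whose smallest possible p with 4 against 4 libraries is 0.0286. The log2 ratio of Insig1 to Insig2 averaged -0.22 ± 0.427 for wild type and -0.50 ± 0.0990 for mutant libraries (SD, n = 4; exact permutation p = 0.343). That of Srebf1 to Srebf2 was -2.26 ± 0.136 and -2.42 ± 0.457 (SD, n = 4; exact permutation p = 0.543), with mutant 2 to 4 below and mutant 1 above every wild type library. For Scd1 to Scd2 and Acaca to Fasn the exact permutation p was 0.914 and 0.743. Adjusted over the 4 ratios, each permutation p was 0.914. With that smallest p, a single fully separated ratio could not fall below 0.05 after the adjustment, so the adjusted values decide little.

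Among the 5 genes of fatty acid synthesis none passed, 4 were negative and the median log2 fold change was -0.19. Acaca, the acetyl-CoA carboxylase that commits carbon to fatty acids, was even in wild type, at 61.6 ± 1.54 CPM, and had 54.2 ± 9.05 CPM in mutant libraries (SD, n = 4), with mutant 3 at 41.9 and mutant 1 at 63.2 CPM. Its log2 fold change was -0.19, and -0.08 without mutant 3. Fasn, the fatty acid synthase, ran from 214 to 275 CPM among wild type and from 174 to 260 among mutant libraries, at -0.15 (SE 0.140), or -0.06 without mutant 2 or wild type 6 and -0.26 without mutant 1. Scd2 (ENSMUSG00000025203, chromosome 19, 44293674 to 44306864) measured 529, 528, 510 and 539 CPM across wild type 5 to 8 and 451, 507, 394 and 341 CPM across mutant 1 to 4. Wild type libraries were close together and all above the mutant libraries, of which mutant 2 came within reach of wild type 7. The log2 fold change of Scd2 was -0.32 (SE 0.124, interval -0.59 to -0.04, edgeR adjusted p = 0.333).

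Elovl6 (ENSMUSG00000041220, chromosome 3, 129532355 to 129638495), which lengthens palmitate to stearate, had the opposite sign to the 4 negative fatty acid genes of the set. Of 20 genes of fatty acid synthesis, elongation and desaturation outside the set, 11 were positive and 9 negative. It measured 45.7, 48.9, 45.3 and 48.4 CPM across wild type 5 to 8 and 55.8, 56.3, 50.3 and 60.5 CPM across mutant 1 to 4, again without overlap. Its log2 fold change was 0.24 (SE 0.0988, interval 0.03 to 0.46, edgeR adjusted p = 0.343). Scd1 averaged 6.16 ± 1.79 CPM for wild type and 4.85 ± 0.985 for mutant libraries (SD, n = 4), or -0.35 (SE 0.247), and wild type 8 at 3.54 CPM was the lowest of all; without it the change was -0.53.

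**Figure D4:**
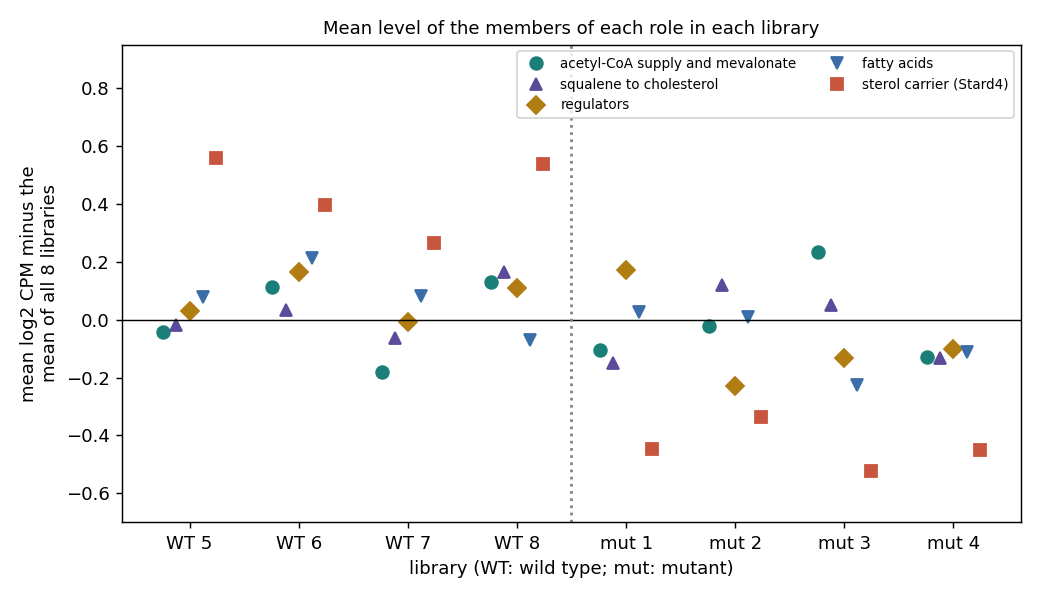
Mean log2 CPM of the genes of each role in each library, minus the mean over all 8 libraries. Stard4 (squares) lies between 0.26 and 0.56 in wild type and between -0.34 and -0.52 in mutant libraries, whereas every other role has libraries of both groups above and below 0.

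As means of log2 CPM, the 19 sterol enzymes varied between libraries within each group. Together they lay at -0.03, 0.07, -0.11 and 0.15 around the mean of all libraries for wild type 5 to 8, and for mutant 1 to 4 at -0.13, 0.06, 0.13 and -0.13. The groups thus overlapped, and the group means differed by -0.04, less than the SD within wild type (0.115) or mutant (0.133) libraries. For the regulators the difference was -0.147, above the SD within wild type (0.078) but not within mutant libraries (0.173). For the fatty acid genes it was -0.151, above the SD within wild type (0.115) and mutant (0.118) libraries. Mutant 4 held the lowest level of 8 of the 19 sterol enzymes and mutant 3 the highest of 6. Stard4 in the same libraries was at 32.5 and 30.9 CPM, next to each other.

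Of 7 further lists of lipid genes, 6 held no gene past the threshold over all genes. In the list of NADPH supply the only gene of 9 past it was Me1, where 0.359% of all tested genes passed. Me1 was listed with its fall already known, so this count is not read as a result about the list. Me1 (ENSMUSG00000032418), the cytosolic malic enzyme that provides NADPH for fatty acid synthesis and was known from earlier results to fall, measured 54.1, 61.6, 45.6 and 59.1 CPM across wild type 5 to 8 and 8.61, 19.8, 10.2 and 10.3 CPM across mutant 1 to 4. These groups were far apart, with a log2 change of -2.18 (SE 0.240). Because this fall was already known, the difference of Me1 is given as a description with no test. The other 8 NADPH genes did not pass.

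The sterol transport list, with Stard4's relatives among the START-domain proteins, had 0 of 15 past the threshold. Gramd1c had -0.82 (SE 0.293) at 1.82 CPM in wild type, and Stard3nl 0.38 (SE 0.156). None of 11 tested genes of 12 listed for isoprenoid branches and sterol storage passed, with Coq2, of ubiquinone synthesis, at 0.67 (SE 0.176, edgeR adjusted p = 0.152) and Soat1, which esterifies cholesterol, at -0.48 (SE 0.272). SREBP processing genes were 0 of 8, with the protease Mbtps2 at 0.12 (SE 0.0903) and Tmem97 at -0.25 (SE 0.197). LXR receptors and targets were 0 of 7, with the receptor genes Nr1h2 at -0.39 (SE 0.166) and Nr1h3 at -0.85 (SE 0.446). Of 20 other genes of fatty acid synthesis, elongation and desaturation none passed; Aacs, which activates acetoacetate for lipid synthesis, had -0.47 (SE 0.134, edgeR adjusted p = 0.199) and Hacd1, an elongation dehydratase, 0.56 (SE 0.164). Fatty acid activation and glycerolipid genes were 0 of 12, with Agpat3 at 0.22 (SE 0.127) and Gpam at 0.31 (SE 0.188).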

How the data were processed

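The authors deposited raw read counts per Ensembl gene for 4 mutant and 4 wild type libraries, with a gene length; the file header gives no further step. Base calls came from bcl2fastq 1.8.4 and the build was mm10, per the submitters' processing notes. Per the labels' protocols, each library started from 2 ng of total RNA, was amplified over 14 PCR cycles and was run with the others on 3 lanes. Aligner, counting program and annotation release are not given in the sources used here. Column headings give the group but not the replicate number of the titles.

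Counts were fitted in R 4.3.3 with edgeR 4.0.16 (filterByExpr, TMM, robust quasi-likelihood F test, Benjamini-Hochberg over 19494 genes, threshold 0.05, no covariate). Standard errors were taken from F, as the absolute log2 change over its square root, and 95% intervals use them with the t distribution. Alternatives used DESeq2 1.42.0 and limma 3.58.1. Library means of log2 CPM used a prior count of 2, and ratios one of 0.5. Positions and transcripts are those of GENCODE M21, and 37607 table genes had a symbol. Sequencing depth sets only the counting error, and PCR copies are not independent molecules: a gene of the set had 130 to 21293 reads per library. No pair of libraries agreed within sampling noise (lowest chi-square per gene 16.5).

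The members, lists and tests were chosen with earlier results of these data known. All 30 members could be named. From each further list, genes past the threshold were named, otherwise the 2 with the smallest p.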

Additional observations from a re-analysis of the deposited data

Results flagged for a closer look

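Each group of 4 libraries was tested for a value far from the other 3, for all 30 genes, so that 60 groups were examined. Chance flags about 1 in 20 such groups, and 2 of the 60 stood out. Srebf1 in mutant 1 was at 34.5 CPM, against 13.4 to 16.3 CPM in the other mutant libraries. Insig2 in mutant 3 was at 38.9 CPM, against 34.7 to 35.2 CPM in the other mutant libraries, a small difference between closely grouped values that lies within the wild type range of 31.5 to 43.7 CPM.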

How the results depend on the processing

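No paired analysis was possible because the columns of the count table carry no replicate number of the titles. The number of genes past the threshold was 70 and rose to 214 with no low-count filter, 489 with DESeq2, 233 with limma-voom with quality weights and 171 with mutant 1 and wild type 5 and 6 all left out. With single libraries left out it ran from 26 to 544. Of the 29 genes other than Stard4, 0 were past the threshold, and 0 to 1 with single libraries left out, the 1 being Srebf1 without mutant 1. For 24 of the 29, leaving out some single library moved the log2 fold change by over 1.5 times; none of the 24 was past the threshold with all libraries. Over 19 alternatives the log2 fold change of Stard4 stayed between -0.94 and -0.84. That of Me1, recorded after seeing the data, stayed between -2.50 and -1.97. Both falls were known beforehand and the alternatives use the same libraries, so these ranges are a description. The sign held in all 19 for 20 of the 29 genes and turned in some for 9, all of them close to 0. It turned to -0.0083 for Fdps and -0.021 for Tm7sf2 when scaled by library total only, to 0.0037 for Hmgcs1 with no low-count filter, and to 0.041 for Acly and 0.068 for Hmgcs1 with mutant 1 and wild type 5 and 6 all left out. With single libraries left out, values ran from -0.080 to 0.042 for Acly, -0.18 to 0.037 for Acat2, -0.11 to 0.057 for Hmgcs1, -0.18 to 0.00076 for Fdft1, -0.075 to 0.11 for Fdps, -0.074 to 0.015 for Lss, -0.055 to 0.14 for Tm7sf2, -0.035 to 0.16 for Ebp and -0.12 to 0.037 for Insig2. The log2 ratio difference ran from -0.19 to 0.15 for Scd1 to Scd2 and from -0.13 to 0.020 for Acaca to Fasn. The cause was not tested. Other scalings shifted the all-gene median by at most 0.058 (log2).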
